A study of Mus musculus with 12 samples.

Results

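The cell cycle engine is described here by 42 genes: 8 cyclins, 4 cyclin-dependent kinases (Cdks), 6 Cdk inhibitors, the 3 Cdc25 phosphatases with the kinase Wee1, 8 E2F factors, 3 pocket proteins of the Rb family, 3 regulators of replication licensing, 4 mitotic kinases, and p53 (Trp53) with its ubiquitin ligase Mdm2. The genes were taken by symbol, through the GENCODE annotation, from the 51467 genes of a count table. All 42 were found, and all 42 were among the 14731 genes that reached 3 CPM, the read count scaled to a common library size, in 3 or more libraries. Cdkn2c passed that filter through ESC libraries alone, since none of its EpiLC libraries reached it.

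The study compared mouse embryonic stem cells (ESCs), which were grown in fetal bovine serum with LIF and the 2i inhibitors PD0325901 (against MEK) and CHIR99021 (against GSK3), with epiblast-like cells (EpiLCs). EpiLCs came from ESCs that had been plated for 24 h and were harvested some 56 h after the withdrawal of LIF and 2i. All cells, ESCs included, received 4-thiouridine (4sU) for 30 min before lysis, so that RNA made in the pulse could be captured (4sU libraries, nascent RNA) beside ribosome-depleted total RNA (total libraries, called mRNA here). Each of the 4 groups had 3 libraries. According to the methods, the differentiation used 1 reporter line on the V6.5 background, with mCherry at miR-290 and GFP at miR-302, and the libraries are called biological replicates by the study. The labels do not say whether they came from separate cultures, so p-values measure the spread between these libraries, part of which may be technical.

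In a dividing cell, D-type cyclins with Cdk4 or Cdk6, and then cyclin E with Cdk2, phosphorylate the pocket proteins and free E2F factors to switch on genes for DNA synthesis. Cyclin A and cyclin B with Cdk1 carry the cell through to mitosis, while Cip/Kip and INK4 inhibitors hold the kinases back. Mouse ESCs have been described with a short G1 phase, high Cdk2 activity, little D-type cyclin and a weak p53 to p21 (Cdkn1a) checkpoint. Whether that description holds in the medium used here was not tested. In ESC total RNA the mean level was 194 CPM for Ccnd1, 183 CPM for Ccnd3 and 4.98 CPM for Ccnd2. The EpiLC means were 262, 57.9 and 25.0 CPM. These are levels of RNA and not of protein or kinase activity, and CPM is not scaled to gene length.

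Libraries held 3097693 to 5385644 counted reads for 4sU RNA and 9300845 to 21975684 for total RNA, so counting error is larger for nascent values. Spearman's rho between replicates ran from 0.970 to 0.998, and counts of each pair differed by more than sampling noise (chi-square per degree of freedom 1.41 to 29.7). ESC replicate 3 stood apart: its pairs had the lowest rho in both assays (0.970 and 0.976 for 4sU, 0.985 for total RNA). In total RNA, 9 of 10 naive markers fell and 6 of 7 primed or formative markers rose. Of 10 fibroblast markers, 3 had no read in ESC total libraries and 2 had none in EpiLC total libraries, and their summed level was 10.1 to 14.4 CPM in ESCs and 15.9 to 20.9 CPM in EpiLCs. Primitive endoderm markers summed to 4.56 to 11.1 CPM and to 17.8 to 20.5 CPM there. Trophoblast markers went the other way in total RNA, from 47.3 to 57.7 CPM to 16.1 to 24.0 CPM. Of the 3 trophoblast markers kept, 1 was called lower. In 4sU RNA the trophoblast sums overlapped, at 72.9 to 88.1 CPM in ESCs and 53.4 to 91.6 CPM in EpiLCs. The part of fibroblast, primitive endoderm or trophoblast cells in the results was not tested. In bulk RNA fewer cells of a type and less RNA per cell cannot be told apart.

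To see which engine genes changed between the states, limma-voom was run on every gene kept, with terms for cell state, RNA fraction and their interaction. A gene was called at a Benjamini-Hochberg adjusted p under 0.05 with an absolute log2 fold change over 1 (EpiLC over ESC). In total RNA 3 members rose (Ccnd2, E2f7 and Rb1), which is 7.14% of the 42 against 16.3% of all genes. A further 5 members fell (Cdkn2c, Ccnd3, E2f1, E2f2 and Cdkn1a), 11.9% against 11.2% of all genes. In nascent RNA 3 rose (Ccnd2, E2f7 and Ccne2; 7.14% against 11.9%) and 2 fell (Ccnd3 and E2f1; 4.76% against 13.5%). At the adjusted p alone, 11 members were higher and 17 lower in EpiLC total RNA (26.2% and 40.5%, against 31.4% and 32.1% of all genes), and 12 were higher and 12 lower in nascent RNA (28.6% each, against 23.7% and 28.8%). The median log2 fold change of the 42 was -0.08 in total RNA (0.02 over all genes) and -0.08 in nascent RNA (-0.09 over all genes).

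**Figure D1:**
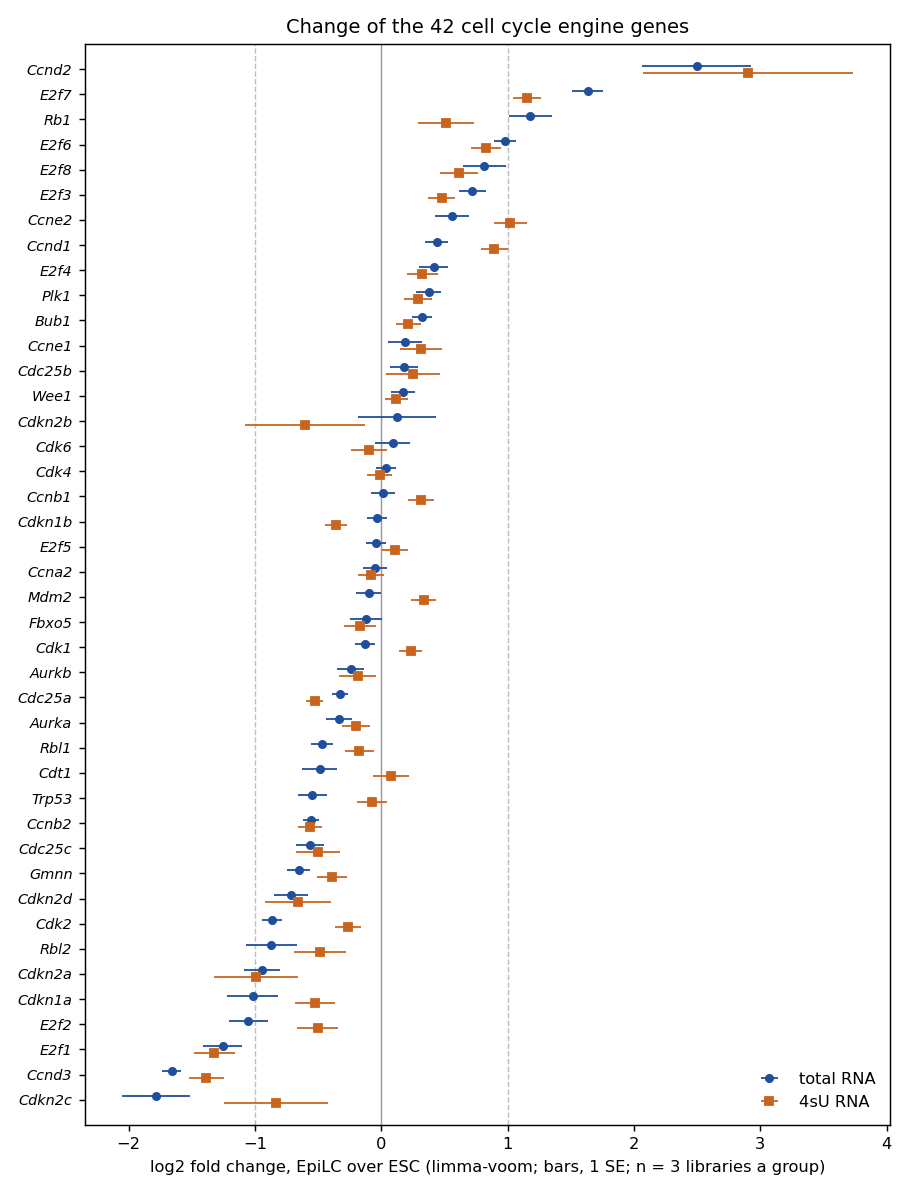
Log2 fold change (EpiLC over ESC) of each of the 42 genes in total RNA (circles) and 4sU RNA (squares), with bars of 1 SE from limma-voom and 3 libraries per group. Ccnd2 lies at the top with 2.49 and 2.90, and Cdkn2c (-1.78) and Ccnd3 (-1.66) lie at the bottom in total RNA; dashed lines mark a log2 fold change of 1 in either direction.

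The D-type cyclins, the mitogen-responsive partners of Cdk4 and Cdk6, moved in opposite directions. Ccnd2 (ENSMUSG00000000184.12, mm10 chromosome 6, 127125162 to 127151060, minus strand) had 6.32, 7.75 and 0.885 CPM in the ESC total libraries and 26.2, 23.4 and 25.3 CPM in the EpiLC total libraries. In 4sU libraries it had 4.50, 3.40 and 0.542 CPM in ESCs and 17.2, 18.9 and 18.1 CPM in EpiLCs. Each EpiLC library lay above each ESC library, and ESC replicate 3 was the lowest in both assays, with 9 reads in total and 2 reads in 4sU RNA. Ccnd2 rose by 2.49 ± 0.43 in total RNA on the log2 scale (SE; 5.64-fold, limma-voom adjusted p = 0.00015) and by 2.90 ± 0.83 in nascent RNA (7.49-fold, adjusted p = 0.00907). Without both ESC libraries numbered 3 the rises were 1.81 and 2.17 and kept their calls.

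Ccnd3 (ENSMUSG00000034165.16, chromosome 17, 47505051 to 47599691, plus strand) went the other way. Its total libraries had 185, 183 and 180 CPM in ESCs and 61.0, 54.1 and 58.4 CPM in EpiLCs, and its 4sU libraries 39.5, 44.9 and 38.8 CPM against 17.7, 15.9 and 13.4 CPM. The cell types did not overlap in either assay. It fell by 1.66 ± 0.08 in total RNA (3.16-fold lower, limma-voom adjusted p = 2.6e-10) and by 1.39 ± 0.14 in nascent RNA (2.61-fold lower, adjusted p = 1.79e-06). Ccnd1 had 208, 204 and 168 CPM in ESC and 252, 272 and 261 CPM in EpiLC total libraries, and 94.5, 117 and 99.5 CPM against 189, 188 and 202 CPM in 4sU libraries. Ccnd1 was higher in every EpiLC library, with log2 fold changes of 0.44 ± 0.09 (limma-voom adjusted p = 0.000701) and 0.89 ± 0.11 (adjusted p = 7.9e-06), both short of the fold threshold.

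Levels of different genes are comparable only per length, so the make-up of the 3 D-type cyclins was computed from TPM, in which reads are divided by exon length and scaled to the same sum in each library. In ESC total RNA, Ccnd3 made up 58.8% ± 2.7 (SD, n = 3) of their sum, Ccnd1 40.6% ± 2.3 and Ccnd2 0.569% ± 0.41. In EpiLC total RNA, Ccnd1 made up 71.9% ± 2.0, Ccnd3 24.3% ± 1.7 and Ccnd2 3.83% ± 0.26. In 4sU RNA, the share of Ccnd1 was 61.7% ± 1.4 in ESCs and 85.01% ± 1.7 in EpiLCs, and that of Ccnd3 37.4% ± 0.88 and 10.6% ± 1.6. For each of the 3 genes in each assay the cell types did not overlap, and the exact two-sided permutation test gave p = 0.1, the smallest that 3 against 3 libraries allow. The order of Ccnd3 over Ccnd1 in ESC total RNA rested on the division by length, since shares of CPM were 48.1% and 50.7%.

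**Figure D2:**
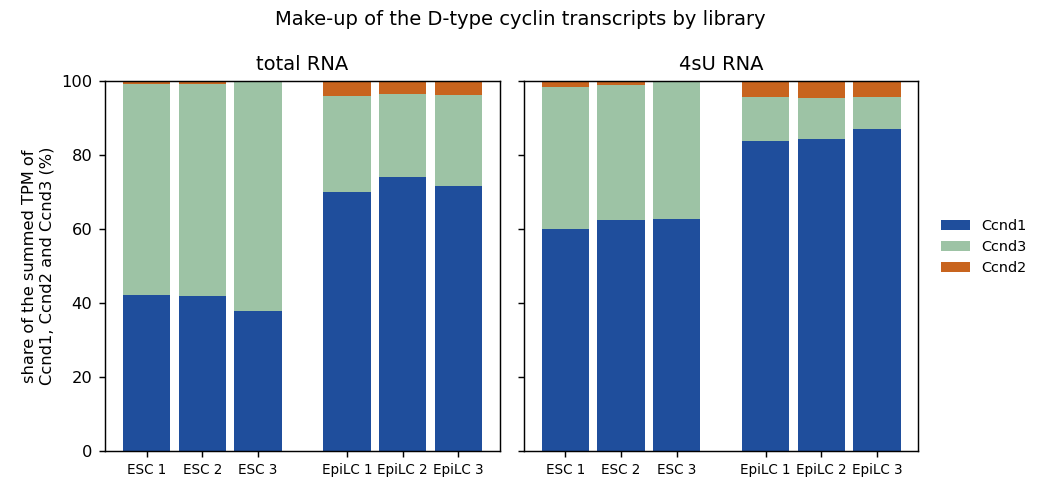
Share of Ccnd1, Ccnd3 and Ccnd2 in their summed TPM, in percent, for each library (bars, ESC 1 to 3 and EpiLC 1 to 3), in total RNA (left) and 4sU RNA (right). Ccnd1 takes 37.9% to 42.1% of the sum in ESC and 70.0% to 74.0% in EpiLC total libraries.

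Of the cyclin E pair, which activates Cdk2 at the entry to S phase, Ccne2 was called in nascent RNA. Ccne2 (ENSMUSG00000028212.16, chromosome 4, 11191354 to 11204779, plus strand) had 126, 174 and 118 CPM in ESC and 259, 285 and 298 CPM in EpiLC 4sU libraries, without overlap. It rose by 1.02 ± 0.13 (limma-voom adjusted p = 1.88e-05), just over the fold threshold, and lost its call without ESC 4sU replicate 1 (0.93) or replicate 3 (0.98). In total RNA it had 49.3, 62.1 and 59.8 CPM against 76.2, 85.1 and 89.3 CPM, a change of 0.56 ± 0.13 (adjusted p = 0.00192). Ccne1 overlapped between the cell types in both assays and changed by 0.19 ± 0.14 in total RNA (limma-voom adjusted p = 0.245).

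The cyclins of S phase and mitosis had some of the highest levels of the 42. Ccnb2, a cyclin B with a mean of 246 TPM in ESC and 195 TPM in EpiLC total RNA (194 and 219 TPM for Ccna2), had 241, 240 and 227 CPM in ESC and 158, 159 and 164 CPM in EpiLC total libraries. It was lower by the same amount in both assays, with log2 fold changes of -0.56 ± 0.06 in total RNA (limma-voom adjusted p = 3.23e-06) and -0.56 ± 0.10 in nascent RNA (adjusted p = 0.0002), and neither reached the fold threshold. Ccnb1 (0.02) and Ccna2, the cyclin A of dividing somatic and stem cells (-0.05), overlapped between the cell types in total RNA and had adjusted p of 0.897 and 0.65 there. In nascent RNA Ccnb1 was higher in every EpiLC library, by 0.32 ± 0.10 (limma-voom adjusted p = 0.0185).

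Among the kinases, Cdk2 was the one that differed in total RNA. Its total libraries had 184, 175 and 180 CPM in ESCs and 96.5, 96.6 and 102 CPM in EpiLCs, without overlap, a log2 fold change of -0.87 ± 0.08 (limma-voom adjusted p = 2.5e-07) that fell short of the fold threshold. Its 4sU libraries had 62.0, 78.5 and 74.6 CPM against 62.9, 58.7 and 56.1 CPM and overlapped (-0.27 ± 0.10, adjusted p = 0.0416). Cdk4, the highest of the kinases by TPM, had 438, 444 and 370 CPM in ESC and 412, 429 and 440 CPM in EpiLC total libraries, which overlapped (0.03 ± 0.08, adjusted p = 0.728). Cdk6, the other partner of D-type cyclins, overlapped in both assays (0.09 ± 0.14 in total RNA, adjusted p = 0.586). The mitotic kinase Cdk1 was slightly higher in nascent RNA (0.23 ± 0.09, adjusted p = 0.0433) and changed by -0.13 ± 0.08 in total RNA (adjusted p = 0.173).

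Of the 6 Cdk inhibitors among the members, 0 were higher in EpiLCs and 4 were lower at the adjusted p alone in each assay. Of all genes, 32.1% were lower in total RNA and 28.8% in nascent RNA. Cdkn1a, Cdkn2a and Cdkn2d were lower in both assays, Cdkn2c passed in total RNA and Cdkn1b in nascent RNA. The median log2 fold changes of the 6 were -0.83 and -0.63. Cdkn1c, a Cip/Kip inhibitor that is not among the members, went the other way. It rose by 2.67 in total RNA (limma-voom adjusted p = 1.61e-08) and by 2.65 in nascent RNA (adjusted p = 0.000877). The counts above therefore hold for the listed inhibitors and not for the whole of these families. Cdkn2c (p18, an INK4 inhibitor of Cdk4 and Cdk6; ENSMUSG00000028551.14, chromosome 4, 109660876 to 109667189, minus strand) had 5.56, 5.99 and 7.18 CPM in ESC and 1.12, 2.56 and 1.69 CPM in EpiLC total libraries. It fell by 1.78 ± 0.27 (3.44-fold lower, limma-voom adjusted p = 4.36e-05), from 73 to 119 reads per library to 10 to 27. Cdkn2c passed the expression filter through ESC libraries alone, so its place among the tested genes rested on its ESC level. Its 4sU libraries held 6 to 24 reads and its nascent change of -0.84 ± 0.41 was not past the threshold (adjusted p = 0.103).

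Cdkn1a (p21, the Cip/Kip inhibitor that p53 switches on; ENSMUSG00000023067.13, chromosome 17, 29090979 to 29100722, plus strand) had 39.9, 35.4 and 51.1 CPM in ESC and 23.0, 18.4 and 20.0 CPM in EpiLC total libraries. Its 4sU libraries had 369, 336 and 513 CPM and 334, 260 and 241 CPM. The cell types did not overlap in either assay, and the highest ESC value was that of replicate 3 in both. Cdkn1a fell by 1.02 ± 0.20 in total RNA (limma-voom adjusted p = 0.000488) and changed by -0.52 ± 0.16 in nascent RNA (adjusted p = 0.013). The call stood at the edge of the fold threshold and was lost without ESC total replicate 3 (-0.89) or EpiLC total replicate 2 (-0.94).

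Cdkn1b (p27), with a mean of 30.2 TPM in ESC and 34.2 TPM in EpiLC total RNA (30.4 and 17.1 TPM for Cdkn1a), had 87.1, 81.5 and 89.6 CPM in ESC and 83.0, 86.4 and 81.6 CPM in EpiLC total libraries, which overlapped (-0.04 ± 0.08, adjusted p = 0.704). Its nascent RNA was lower in each EpiLC library (-0.36 ± 0.09, limma-voom adjusted p = 0.00353). Cdkn2a changed by -0.94 ± 0.14 in total RNA (limma-voom adjusted p = 4.21e-05), from 11.8 to 15.0 CPM in ESCs to 6.36 to 7.39 CPM in EpiLCs. It encodes p16 and Arf from exons that a count per gene does not separate. Cdkn2d (p19) changed by -0.72 ± 0.14 (adjusted p = 0.00035), and Cdkn2b (p15), at 2.27 to 5.21 CPM in total libraries, overlapped between the cell types.

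**Figure D3:**
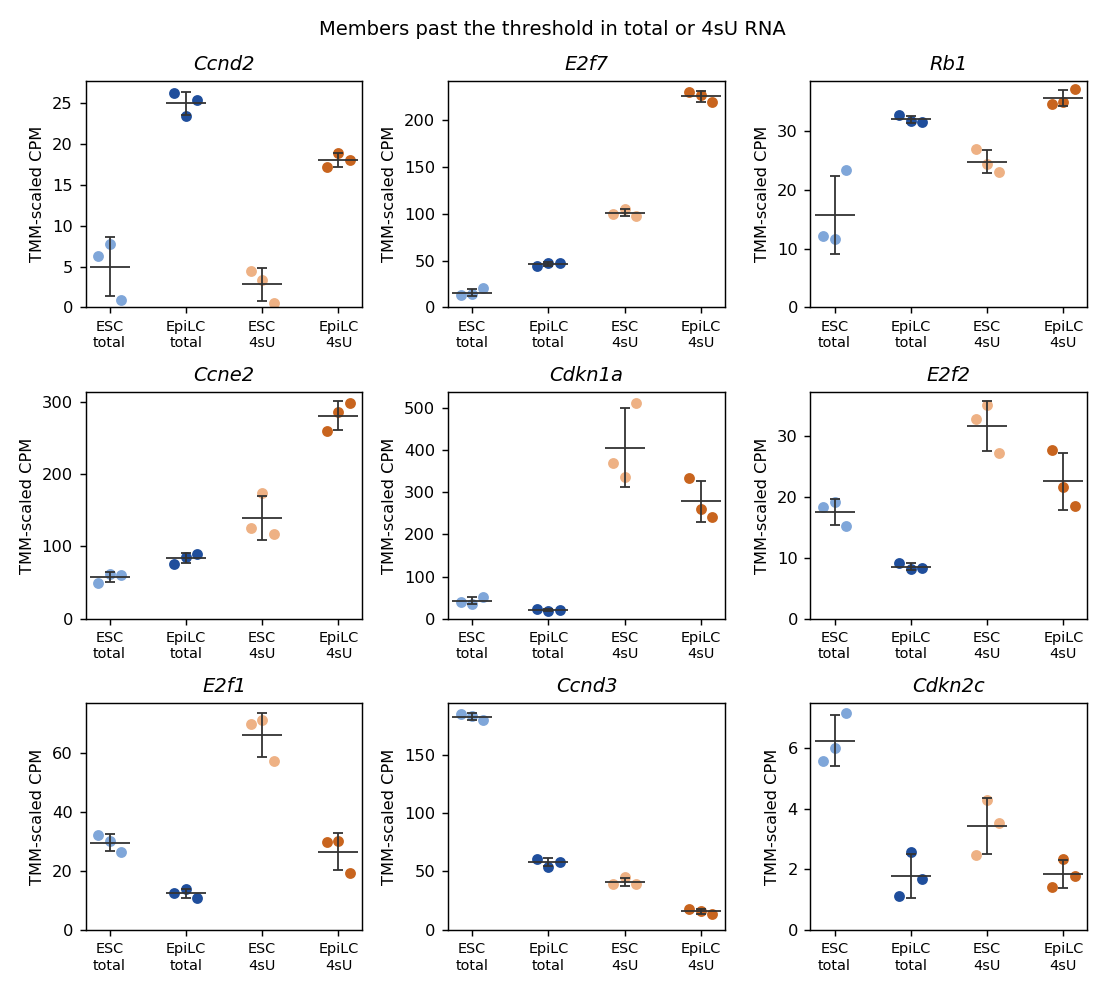
TMM-scaled CPM of the 9 members called in total or 4sU RNA, with 1 point per library (3 per group), the group mean as a horizontal line and bars of 1 SD; each panel has its own axis from 0. The single ESC points near 0 in the Ccnd2 panel (0.885 and 0.542 CPM) are those of replicate 3.

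In the E2F family, E2f1 and E2f2, activators that drive genes of DNA synthesis, fell in total RNA, and E2f7, an atypical member that represses them, rose. E2f1 (ENSMUSG00000027490.17, chromosome 2, 154559407 to 154569892, minus strand) had 32.2, 30.05 and 26.4 CPM in ESC and 12.5, 13.9 and 10.9 CPM in EpiLC total libraries, and 69.9, 71.4 and 57.5 CPM against 29.9, 30.3 and 19.3 CPM in 4sU libraries. It fell by 1.25 ± 0.15 in total RNA (limma-voom adjusted p = 5.48e-06) and changed by -1.32 ± 0.16 in nascent RNA (adjusted p = 1.24e-05), with no overlap in either assay.

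E2f2 (ENSMUSG00000018983.9, chromosome 4, 136172394 to 136196057, plus strand) had 18.3, 19.0 and 15.1 CPM in ESC and 9.15, 8.05 and 8.35 CPM in EpiLC total libraries. It fell by 1.05 ± 0.16 (limma-voom adjusted p = 3.31e-05), and the call was lost without ESC total replicate 2 (-0.99). Its 4sU libraries overlapped, with 32.7, 35.1 and 27.1 CPM in ESCs and 27.6, 21.6 and 18.4 CPM in EpiLCs (-0.50 ± 0.16, adjusted p = 0.018).

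E2f7 (ENSMUSG00000020185.16, chromosome 10, 110745465 to 110787384, plus strand) had 12.9, 13.99 and 20.4 CPM in ESC and 44.0, 47.8 and 47.7 CPM in EpiLC total libraries. In 4sU libraries it had 99.8, 105 and 97.9 CPM and 229, 226 and 219 CPM. The cell types were far apart in both assays, and the rises were 1.63 ± 0.12 (3.10-fold, limma-voom adjusted p = 3.65e-08) and 1.15 ± 0.11 (2.22-fold, adjusted p = 9.31e-07). E2f8, the other atypical factor, was higher in every EpiLC library of both assays, by 0.82 ± 0.17 in total RNA (adjusted p = 0.000687) and 0.61 ± 0.15 in nascent RNA (adjusted p = 0.00356), short of the fold threshold.

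The remaining E2F genes were higher or overlapped. E2f6, a repressor that acts without pocket proteins, went from 15.6, 16.5 and 16.2 CPM in ESC to 32.5, 32.4 and 30.7 CPM in EpiLC total libraries, a change of 0.98 ± 0.09 (limma-voom adjusted p = 1.94e-07) just under the fold threshold. E2f3, the third activator, changed by 0.72 ± 0.11 (adjusted p = 4.52e-05), against the direction of E2f1 and E2f2. E2f4, the family member with the highest TPM in total RNA and a partner of pocket proteins in repression, had 73.4, 73.1 and 62.1 CPM in ESC and 88.3, 88.8 and 102 CPM in EpiLC total libraries (0.41 ± 0.11, adjusted p = 0.0049). E2f5 overlapped in both assays (-0.04 ± 0.08 in total RNA).

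The pocket proteins, which bind E2F factors, did not move together. Rb1 (ENSMUSG00000022105.6, chromosome 14, 73195502 to 73325822, minus strand) had 12.2, 11.7 and 23.3 CPM in ESC and 32.7, 31.7 and 31.5 CPM in EpiLC total libraries. ESC replicate 3 lay between the other ESC libraries and the EpiLC libraries. Rb1 rose by 1.18 ± 0.17 (2.26-fold, limma-voom adjusted p = 3.16e-05), and without ESC total replicate 2 the rise was 0.995 and lost its call. Its 4sU libraries had 27.0, 24.3 and 23.0 CPM and 34.6, 35.0 and 37.1 CPM, a change of 0.51 ± 0.22 (adjusted p = 0.0646). Rbl1 (p107), the highest of the 3 by TPM, had 55.8, 57.7 and 67.8 CPM in ESC and 43.3, 42.3 and 44.1 CPM in EpiLC total libraries (-0.47 ± 0.09, adjusted p = 0.000257). Rbl2 (p130) changed by -0.87 ± 0.20 (adjusted p = 0.00155), from 17.4, 15.3 and 25.3 CPM to 10.5, 9.66 and 9.74 CPM.

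Several members of this loop carry letters that E2F factors are known to bind. Promoter windows of 250 bases before to 50 bases after the gene start (RefSeq, GRCm38.p6) were given for 31 of the 42 genes, with all given starts of a gene searched (E2f2 has 2, and its match is in the one shown). The strings TTTCGCGC, TTTGGCGC, TTCCCGCC and TTTCCCGC, read on both strands and free to overlap one another, occurred in the windows of 9 of these 31 genes (29.0%), against 4.79% of 20176 genes. The 9 were Cdc25a, Cdk1, Cdk2, Cdkn2a, Cdt1, E2f2, E2f3, E2f7 and Rbl1. The 20176 genes include ones that did not pass the expression filter, while all 31 members passed it, so the 2 shares differ in this too. Shares among the genes kept were not computed. A match is a description of the window and not a bound site. Of the 9, 6 were lower and 2 (E2f3 and E2f7) were higher in EpiLC total RNA at the adjusted p alone. Of the 22 without a match 9 were lower and 4 higher, where 32.1% of all genes were lower and 31.4% higher. The windows given for E2f1 and Cdkn2c, among the 22, lay inside these minus-strand genes. They reached 154569676 and 109667006, while the GENCODE genes start at 154569892 and 109667189. The bases before those starts were not searched. Windows of E2f2, E2f7 and Rbl1 are shown because these members moved in different directions; each is written 5′ to 3′ on the strand of the gene, with the match in capitals.
E2f2, chr4:136172024-136172323, plus strand: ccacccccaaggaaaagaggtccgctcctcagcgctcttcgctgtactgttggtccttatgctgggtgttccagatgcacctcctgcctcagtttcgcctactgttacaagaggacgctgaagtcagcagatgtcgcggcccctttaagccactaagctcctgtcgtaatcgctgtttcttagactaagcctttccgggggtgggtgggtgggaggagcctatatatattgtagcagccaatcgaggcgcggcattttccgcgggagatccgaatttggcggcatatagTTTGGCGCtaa
E2f7, chr10:110745189-110745488, plus strand: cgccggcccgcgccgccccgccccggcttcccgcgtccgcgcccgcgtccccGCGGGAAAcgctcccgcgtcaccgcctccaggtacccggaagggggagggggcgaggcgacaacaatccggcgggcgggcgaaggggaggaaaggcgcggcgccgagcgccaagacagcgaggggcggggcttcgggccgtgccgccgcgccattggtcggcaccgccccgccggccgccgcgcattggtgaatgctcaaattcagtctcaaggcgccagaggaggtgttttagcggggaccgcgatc
Rbl1, chr2:157204485-157204784, minus strand: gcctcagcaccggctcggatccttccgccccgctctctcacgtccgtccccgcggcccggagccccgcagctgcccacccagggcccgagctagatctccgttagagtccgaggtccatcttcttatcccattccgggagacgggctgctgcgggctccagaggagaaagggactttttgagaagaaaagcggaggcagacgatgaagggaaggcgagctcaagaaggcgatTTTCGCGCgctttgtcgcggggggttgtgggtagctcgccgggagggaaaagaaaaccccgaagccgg

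Mitotic genes are known for a second pair of elements, the cell cycle genes homology region (CHR) and the CCAAT box. The CHR strings TTTGAA and TTTAAA occurred in 14 of the 31 windows (45.2%, against 28.6% of all genes), and CCAAT in 21 (67.7%, against 41.5%), on either strand. Here too the shares of all genes are of the 20176 genes with a window, whether or not they passed the expression filter. Plk1 had 3 CHR strings, and Ccnb2, Cdk1, Aurka, Fbxo5 and Rbl2 had 2 each. Of the 14 genes with a CHR string 3 were higher and 4 lower in EpiLC total RNA at the adjusted p alone. Of the 17 without, 3 were higher and 11 lower, where 31.4% of all genes were higher and 32.1% lower. E2f1 and Cdkn2c, whose windows lay inside the gene, are among the 17.

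The switch between Wee1, which inhibits Cdk1, and the Cdc25 phosphatases, which activate it, showed 0 calls in either direction at the fold threshold in total or nascent RNA. At the adjusted p alone 2 of these 4 genes were lower and 0 higher in each assay, where 32.1% of all genes were lower in total RNA and 28.8% in nascent RNA. Cdc25a, the highest of them by TPM, had 231, 228 and 222 CPM in ESC and 179, 183 and 181 CPM in EpiLC total libraries (-0.33 ± 0.07, limma-voom adjusted p = 0.000515), and 307, 350 and 334 CPM against 225, 232 and 229 CPM in 4sU libraries (-0.53 ± 0.07). Cdc25c was also lower in both assays, by -0.57 ± 0.11 in total RNA (adjusted p = 0.00034). Cdc25b overlapped in both assays, and Wee1 changed by 0.17 ± 0.09 (adjusted p = 0.133).

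Licensing lets each origin fire once: Cdt1 loads the helicase, geminin (Gmnn) blocks Cdt1, and Emi1 (Fbxo5) holds the anaphase-promoting complex back. Gmnn, the highest of the 3 by TPM, had 146, 148 and 120 CPM in ESC and 87.6, 85.9 and 89.5 CPM in EpiLC total libraries, a change of -0.66 ± 0.09 (limma-voom adjusted p = 2.23e-05). Cdt1 was lower as well in total RNA (-0.49 ± 0.14, adjusted p = 0.00551), and its 4sU libraries overlapped (0.08 ± 0.14). Fbxo5 overlapped in both assays. No member of this group reached the fold threshold.

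The mitotic kinases differed by small amounts. Aurka, the spindle pole kinase with a mean of 189 TPM in ESC and 174 TPM in EpiLC total RNA (136 and 198 TPM for Bub1), had 235, 236 and 219 CPM in ESC and 184, 186 and 177 CPM in EpiLC total libraries (-0.34 ± 0.10, limma-voom adjusted p = 0.00958). Plk1, which drives mitotic entry, was higher by 0.38 ± 0.10 (adjusted p = 0.00449), and Bub1, a checkpoint kinase at kinetochores, by 0.32 ± 0.08 (adjusted p = 0.00265). Aurkb changed by -0.24 ± 0.11 (adjusted p = 0.0624). All 4 stayed under the fold threshold, and in nascent RNA Plk1 alone passed the adjusted p (0.29 ± 0.11, adjusted p = 0.0371).

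Trp53 had 97.2, 88.6 and 68.8 CPM in ESC and 59.4, 53.3 and 61.3 CPM in EpiLC total libraries, lower in each EpiLC library (-0.55 ± 0.12, limma-voom adjusted p = 0.000768). Its 4sU libraries overlapped (-0.08 ± 0.12, adjusted p = 0.617). Mdm2 had 146, 132 and 153 CPM against 135, 132 and 133 CPM in total RNA (-0.10 ± 0.10, adjusted p = 0.392), and its 4sU libraries, at 353, 289 and 302 CPM in ESCs and 455, 376 and 362 CPM in EpiLCs, did not overlap (0.34 ± 0.10, adjusted p = 0.011).

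To ask how far levels moved apart from transcription, the mRNA change was compared with the nascent change in an interaction term, which the study takes as a change in mRNA stability. Of the 42 members 0 were called (limma-voom, and also edgeR and DESeq2), against 1.24% of all genes higher and 0.305% lower. Over all genes that is 182 higher and 45 lower calls, a split that moved with the scaling, to 132 and 66 with median-of-ratios factors, 253 and 28 with unadjusted library totals, and 144 and 59 when TMM was run separately for the 4sU and total libraries. At an unadjusted p under 0.05, 3 members were higher and 9 lower by limma-voom, 2 and 9 by edgeR, and 0 and 13 by DESeq2. The shares of all genes at that p were 15.1% higher and 7.84% lower by limma-voom, 15.2% and 7.79% by edgeR, and 9.9% and 11.2% by DESeq2. At the adjusted p alone 0 members were higher and 1 was lower (2.72% and 1.88% of all genes). That member was Cdk2, with -0.60 (limma-voom adjusted p = 0.0201), since its total RNA was lower by more than its nascent RNA. Across 22 alternatives its change ran from -0.75 to -0.48 and its adjusted p from 4.53e-05 to 0.0603. The adjusted p was over 0.05, so that the threshold was not met, without EpiLC 4sU replicate 2 (0.0603), EpiLC total replicate 1 (0.0524) or EpiLC total replicate 2 (0.0578). The median interaction of the 42 was -0.06, against 0.11 over all genes.

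Within a cell type the 42 genes spanned a wide range of total over 4sU RNA (log2 of the CPM ratio of libraries with the same number). Libraries were paired by number for this description, though the labels do not say that a number marks 1 culture. The range ran from -3.26 to 2.15 in ESCs and from -3.76 to 2.00 in EpiLCs, with member medians of -0.07 and -0.12, against 0.03 and 0.15 over all genes. Cdkn1a was the lowest in both cell types, at -3.21, -3.25 and -3.33 in ESCs and -3.86, -3.82 and -3.59 in EpiLCs, which is percentile 9.005 and percentile 1.46 of all genes. The interaction of Cdkn1a, -0.49 ± 0.26 (SE), did not pass the threshold (limma-voom adjusted p = 0.275). E2f7 followed (-2.70 ± 0.39 and -2.27 ± 0.10, SD, n = 3), then E2f8 in both cell types.

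Ccnd3 and Ccnb2 lay at the other end. Ccnd3 had 2.15 ± 0.11 in ESCs and 1.88 ± 0.20 in EpiLCs, and Ccnb2 2.00 ± 0.04 and 2.00 ± 0.07, at percentiles 93.3 to 95.7 of all genes; their libraries overlapped in EpiLCs. Cdk4 (1.52 and 1.57) and Cdkn2a (1.51 and 1.56) came next in EpiLCs and did not differ beyond their spread. The E2F family as a group lay low, with medians of -1.01 in ESCs and -1.23 in EpiLCs, against 0.80 and 0.52 for the cyclins. The ratio sets exonic reads of both assays side by side and is relative, because the 92 spike-in sequences of the table had 0 reads.

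**Figure D4:**
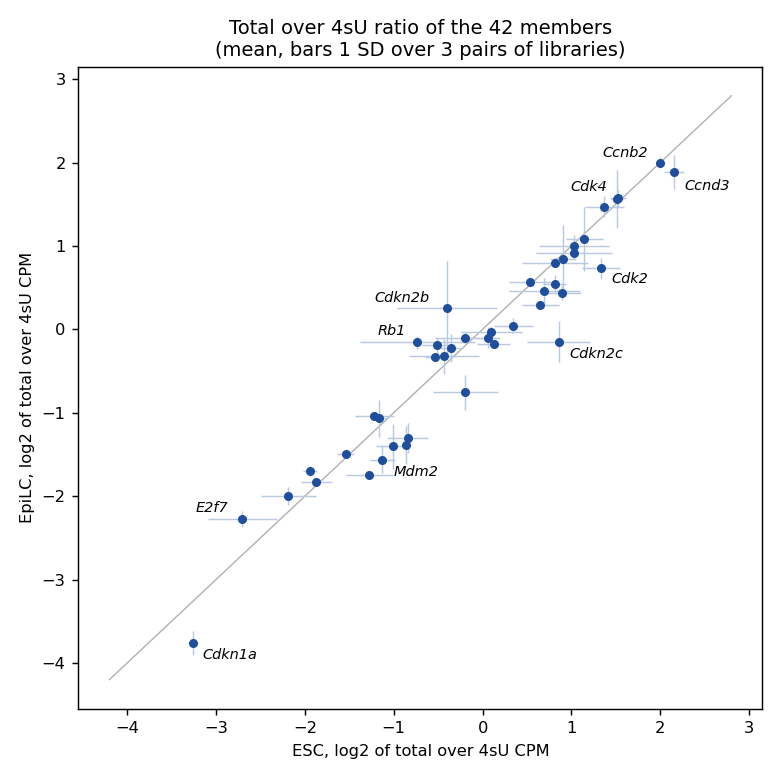
Log2 of total over 4sU CPM for the 42 genes in ESCs (horizontal axis) and EpiLCs (vertical axis), as the mean of 3 pairs of libraries with bars of 1 SD; the diagonal marks equal values. Cdkn1a lies at -3.26 and -3.76, and Ccnd3 and Ccnb2 lie near 2 on both axes.

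The miR-290 and miR-302 families, whose loci carry the reporters of this line, are known to act on inhibitors of the cell cycle. The mature sequences of 5 of them (RefSeq, GRCm38.p6) share 1 seed, bases 2 to 8, in capitals:
miR-291a-3p: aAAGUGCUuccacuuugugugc
miR-294-3p: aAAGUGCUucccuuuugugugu
miR-295-3p: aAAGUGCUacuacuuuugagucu
miR-302b-3p: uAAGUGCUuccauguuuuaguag
miR-302d-3p: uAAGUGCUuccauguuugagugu
A match to the seed reads AGCACTT. It occurred in the 3′ UTR of the principal transcript (GENCODE M21) of 12 of the 42 genes (28.6%), against 16.3% of the 12164 coding genes kept. The median 3′ UTR had 1077 bases for the members and 1046 for all. The 12 were Ccnd1, Ccnd2, Cdk4, Cdk6, Cdkn1a, Cdc25b, E2f2, E2f5, E2f7, Rbl1, Rbl2 and Wee1.

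Sites in members called in total RNA are shown with 11 bases on either side, the match in capitals and the position of its first base in the 3′ UTR in brackets:
Cdkn1a (435): cagacctgaatAGCACTTtggaaaaatga
Cdkn1a (1107): gtgggtgtcaaAGCACTTagtgggtctga
E2f2 (302): ctttttcaagaAGCACTTaacgcctttgt
E2f2 (1341): ctcagtggggcAGCACTTtttgcttgttg
E2f7 (288): cggggttgcctAGCACTTaaccagggtaa
Ccnd2 (988): tccattagaaaAGCACTTtgaaaattttg
These 4 genes moved in both directions, since Cdkn1a and E2f2 fell and E2f7 and Ccnd2 rose. Of the 12 genes with a site, 3 were higher and 4 lower in total RNA at the adjusted p alone, and of the 30 without, 8 and 13, where 31.4% of all genes were higher and 32.1% lower. The median interaction was -0.22 with a site and -0.02 without, and the median total over 4sU was -0.40 and -0.05 in ESCs, all as descriptions without a test.

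The wider cell cycle was read from lists of genes outside the 42. Of 83 further regulators kept, 7 rose and 3 fell in total RNA (8.43% and 3.61%, against 16.3% and 11.2% of all genes), with a median log2 fold change of -0.04. The largest rises were those of Cdk14, a Wnt-linked kinase (4.29), Myc, a transcription factor of growth (3.33), and Cdkn1c, the third Cip/Kip inhibitor (p57; 2.67, from 7.74 ± 2.75 to 50.3 ± 2.28 CPM, SD, n = 3). Falls were those of Mybl2, the B-Myb factor that acts with E2F targets (-2.50, from 503 ± 41.9 to 89.1 ± 0.45 CPM), and Pttg1 (securin, -1.06); Aurkc also fell and had a mean under 10 CPM.

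Transcripts of the G1/S transition were more often lower than higher in EpiLC total RNA. Those of G2/M were evenly divided there, but were more often higher than lower in nascent RNA. Of 40 G1/S transcripts, 0 rose and 2 fell (Uhrf1, a cofactor of maintenance DNA methylation, -1.24, and Ung, a uracil glycosylase, -1.08). At the adjusted p alone 2 were higher and 26 lower (5% and 65%, against 31.4% and 32.1% of all genes), with a median of -0.36. Of 48 G2/M transcripts, 2 rose (G2e3, 1.29, and Mki67, the proliferation antigen Ki-67, 1.06) and 0 fell. At the adjusted p alone 13 were higher and 13 lower (27.1% each), with a median of -0.01. In nascent RNA 21 G2/M transcripts were higher and 5 lower at the adjusted p alone (43.8% and 10.4%). G1/S transcripts were 3 higher and 20 lower there (7.5% and 50%), against 23.7% and 28.8% of all genes. For the interaction 2 G2/M transcripts were higher and 7 lower (4.17% and 14.6%, against 2.72% and 1.88%). Those of G1/S were 0 and 2.

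Of 25 p53 target genes kept, 5 rose and 2 fell in total RNA (20% and 8%, against 16.3% and 11.2% of all genes), with a median of 0.23. At the adjusted p alone 13 were higher and 4 lower (52% and 16%, against 31.4% and 32.1%). As members, Cdkn1a (-1.02 in total RNA) and Mdm2 (-0.10) were outside this list and are not in its counts. Ptpn14, a phosphatase of the Hippo pathway (2.53), Pmaip1, the apoptotic factor Noxa (2.15), and Perp, a junction protein (1.87), rose the most, and Rrm2b (-1.11) and Ei24 (-1.03) fell.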

How the data were processed

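RNA from 12 mouse libraries was measured. The values deposited are untransformed counts of reads for each gene. The authors trimmed single-end reads with cutadapt 1.14, aligned them to mm10 with STAR 2.5.3a, kept unique positions and counted exonic reads by strand with featureCounts 1.5.3 on GENCODE M14 without ribosomal RNA. Unique alignment leaves genes with close copies uncertain (Ccnb1, Ccnb2, Ccnd3 and Trp53 have an annotated pseudogene). Depth was 3097693 to 21975684 reads per library, without molecular identifiers.

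Genes reaching 3 CPM in 3 or more libraries entered 1 linear model in limma-voom (limma 3.58.1; TMM from edgeR 4.0.16; R 4.3.3), tested on simulated data; every adjusted p is from limma-voom over all genes unless another tool is named. CPM is TMM-scaled except marker sums, which use library totals. TPM used the table's exon lengths. Alternatives covered scaling, filter, edgeR, DESeq2 1.42.0, weights, thresholds, blocks and left-out libraries. Members and lists were chosen with earlier results of these data known. Library values are given for members called in any contrast and the highest member of each role by TPM over both states, by a rule written with those earlier results known, and for Ccnd1, Cdk2, E2f6, Rbl2, Cdkn2a and Trp53, which were added after their values were seen; wider lists by the 3 largest called rises and falls at 10 CPM or more.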

Additional observations from a re-analysis of the deposited data

How the results depend on the processing

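For the 42 members, 3 contrasts and 22 alternatives other than the adjusted p alone, 2750 of 2772 values kept their side of the threshold, 12 lost a call, 10 gained one and 0 called values changed direction, while some uncalled values near 0 changed sign (Ccnb1 in total RNA ran from -0.06 to 0.07 with a library left out). With library totals alone, 3 members fell in total RNA, because Cdkn1a (-0.93) and E2f2 (-0.97) came under the fold threshold, and E2f6 (1.07) passed it. With the adjusted p alone the counts were 11 higher and 17 lower in total RNA, 12 and 12 in nascent RNA, and 0 and 1 for the interaction. Sample quality weights took the calls of Cdkn1a (-0.94) and nascent Ccne2 (0.91). When each of the 12 libraries was omitted in turn, members rose in number from 2 to 4 and fell from 4 to 6 in total RNA, rose from 2 to 4 and fell from 2 to 4 in nascent RNA, and 0 to 0 were called for the interaction. The 4 nascent falls came without ESC 4sU replicate 1, when Cdkn2a (-1.13) and Cdkn2c (-1.09) also passed. Without ESC total replicate 3 Ccnd2 rose by 1.82 in total RNA, and without ESC 4sU replicate 3 by 2.26 in nascent RNA.

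Over all genes the interaction gave 182 higher and 45 lower calls, 97 and 82 with no expression filter, and 738 and 108 with sample quality weights. It gave 281 and 73 with the replicate number as a fixed term. With a random term for cell type and replicate number together it gave 405 and 80. With a library omitted the calls ran from 39 and 30 (without EpiLC 4sU replicate 1) to 572 and 86 (without ESC total replicate 3). They were 54 and 49 without ESC total replicate 1. These causes were not tested. By the methods, RNA of a labelled sample was split after extraction, so a total and a 4sU library would share a culture. The labels do not say that the replicate number marks it. The main fit had no term for this pairing, so its p-values for the interaction leave it out. Deviations of total and 4sU libraries with the same number correlated at 0.163 to 0.408 in ESCs and at 0.0234 to 0.0747 in EpiLCs. Those of ESC and EpiLC libraries of the same assay and number correlated at -0.0775 to -0.009. Such correlations cannot decide whether libraries share a culture. With a replicate block, as a fixed number or as a random term, the counts stayed at 3 and 5 in total RNA, 3 and 2 in nascent RNA, and 0 and 0 for the interaction. Counting error in the 4sU libraries limits Ccnd2, Cdkn2a, Cdkn2b and Cdkn2c, which had at most 28 reads in every ESC 4sU library.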
